A study of Mus musculus with 8 samples.

Results

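Metastatic and primary androgen sensitive Myc-CaP tumors were compared across all genes. Members were chosen by the phenotype label alone, and 4 of the 8 tumors sequenced are androgen sensitive, 2 primary (AS primary 1 and 2) and 2 metastatic (AS metastatic 1 and 2). The Myc-CaP line was derived from a prostate cancer of a mouse with a Myc transgene driven by an androgen-responsive promoter in the prostate epithelium, so all tumors share 1 origin. Cells of the androgen sensitive (AS) or castrate resistant (CR) line were placed in the anterior lobe of the prostate of FVB males that were intact or had been castrated surgically beforehand, and the labels do not say which hosts received which line. No drug or other agent is listed for these tumors, and neither the age of the mice nor the organ of the metastases is given. The metastases are called matched, but the primary tumor belonging to each is not named, and separate mice are not stated, so the p-values below measure the spread between these tumors only. The remaining 4 tumors, 2 CR primary and 2 CR metastatic, were used to test whether the difference depends on the phenotype.

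A metastasis grows from cells that have left the first tumor and divide at another site. Genes of DNA synthesis are transcribed as cells enter S phase, histone genes are transcribed during it, and genes of the mitotic spindle peak in G2 and mitosis. Expression of the spindle genes is directed mainly by the DREAM and MuvB complexes, B-Myb, FoxM1 and the CCAAT-binding factor NF-Y. In bulk tissue, more dividing cells and more RNA per dividing cell cannot be told apart, and likewise for every cell type named below.

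Total counts were 61237285 and 68528106 in the AS primary tumors and 77370885 and 91886163 in the AS metastatic tumors. Levels are given as CPM, counts per 1000000 on the TMM scale, and 17466 genes passed the filter on low counts. Across genes, Pearson's r of log2(CPM + 1) was 0.985 between the AS primary tumors, 0.991 between the AS metastatic tumors and 0.979 to 0.989 between the groups. AS primary 1 stood farthest from the metastases. AS primary 2 was closer to the 2 metastases (r of 0.9891 and 0.9890) than to AS primary 1 (0.9849), so the primary tumors did not group together. Levels of epithelial genes, most of them chosen after their values were seen, are described here and do not test the phenotype label. Every run of 4 values is given in the order AS primary 1, AS primary 2, AS metastatic 1 and AS metastatic 2. Krt8 was at 37.8 to 176 CPM and Cldn3 at 102 to 161 CPM, whereas the epithelial genes Cdh1, Epcam and Krt18 did not exceed 0.629, 0.293 and 0.440 CPM in any of the 4 tumors.

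No gene passed an adjusted p of 0.05 in edgeR's quasi-likelihood test, in which the smallest adjusted p was 0.182. At an unadjusted p under 0.05, 748 genes (4.28%) were higher and 524 (3%) lower in the metastatic tumors. Both metastatic values lay above both primary values for 3583 genes (20.5%) and below them for 3084 (17.7%). DESeq2 called 225 genes higher (1.29%) and 105 lower (0.601%) at an adjusted p of 0.05, and edgeR's exact test called 200 (1.15%) and 83 (0.475%). With 2 tumors a side, an exact permutation test of a single value cannot give a p below 0.33. With all 8 tumors in the fit, which then share 1 estimate of the spread, 293 of 18889 genes (1.55%) were higher and 169 (0.895%) lower at an unadjusted p under 0.05. Counts of genes within a list are therefore set beside these shares, with the calls of DESeq2 for the lists described at length.

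Genes of cell division made up a large part of the higher side. The 10 lists on replication, cyclins, kinetochores, the mitotic spindle, kinesins, condensin and cohesin, topoisomerases, homologous recombination, Polycomb repressive complex 2 and histones hold 349 genes tested, which is 1.998% of all. They gave 186 of the 748 genes higher at an unadjusted p under 0.05 (24.9%) and 127 of the 225 called higher by DESeq2 (56.4%). They gave 2 of the 524 lower genes and none of the 105 that DESeq2 called lower. Of the 349 genes, 253 (72.5%) had both metastatic values above both primary values, and 14 (4.01%) had both below.

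**Figure D1:**
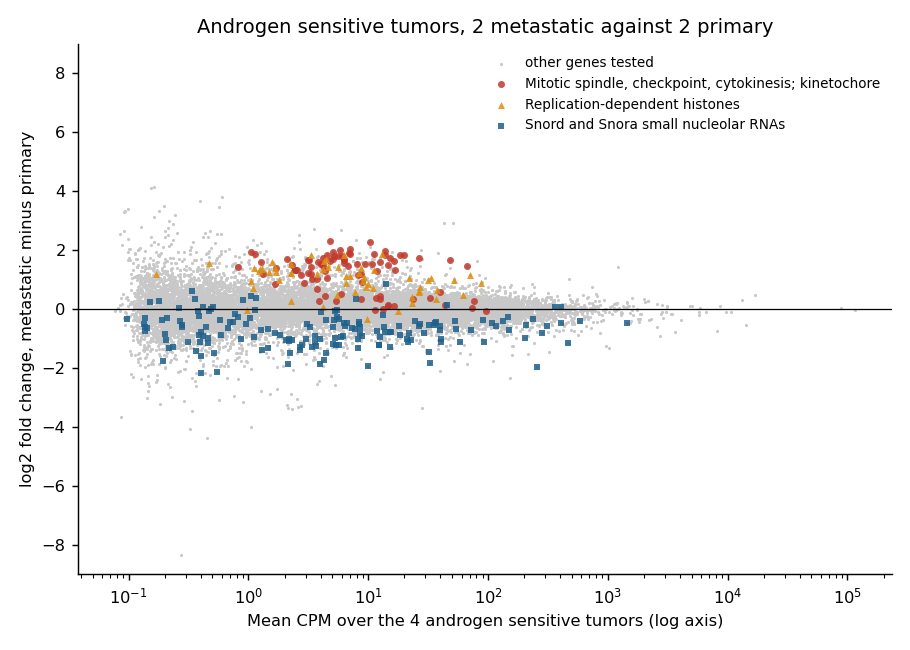
Each point is a gene, with its mean CPM over the 4 AS tumors on a log axis and its log2 fold change, metastatic minus primary, on the vertical axis. Red points are spindle and kinetochore genes, orange triangles are replication-dependent histone genes and blue squares are small nucleolar RNAs. Red and orange points lie mostly above 0, with medians of 1.53 for the spindle list and 1.08 for histones, and blue squares mostly below it.

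Genes that build the mitotic spindle, guard the attachment of chromosomes to it or cut the cell in 2 had the highest median of the lists. Of 45 genes tested, 37 were higher at an unadjusted p under 0.05, none was lower, and 34 were called higher by DESeq2. Both metastatic values were above both primary values for 42 of the 45. Their median log2 fold change was 1.53, against 0.000672 over all genes tested, and the range was -0.08 to 2.26. Without each tumor in turn the median lay between 1.34 and 1.68, and 35 to 38 genes had an unadjusted p under 0.05. There were 26 with all 8 tumors in the fit.

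Bub1, a kinase of the spindle assembly checkpoint (chr2:127801122-127831865, minus strand), was at 2.96, 2.52, 11.5 and 11.2 CPM. The metastases were alike and both were over 3 times the higher primary value, with a log2 fold change of 2.05 (SE 0.21, adjusted p = 0.182). Bub1b, the checkpoint protein BubR1, was at 9.91, 7.43, 28.9 and 32.7 CPM, with a log2 fold change of 1.83 (SE 0.21). Prc1, which bundles the microtubules of the central spindle, was at 9.20, 6.84, 26.5 and 30.4 CPM. The groups of each of these genes were far apart relative to the gap between the 2 tumors of a group. Anln, the actin-binding anillin of the cleavage furrow, was at 23.9, 22.7, 65.8 and 80.8 CPM. Its log2 fold change was 1.66 (SE 0.17). Tpx2, an activator of Aurora A on the spindle, was at 5.54, 4.07, 17.7 and 17.1 CPM.

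Spag5 (astrin) was at 4.32, 4.07, 12.3 and 11.8 CPM. D2Ertd750e, listed as Knstrn (kinastrin) in GENCODE M21 and the partner of astrin, was at 5.58, 4.53, 16.0 and 16.8 CPM. Pbk, a mitotic kinase, was at 3.82, 3.43, 11.3 and 11.3 CPM. In all 3 genes the metastases were close to each other. The cyclins that carry cells into mitosis were higher as well. Ccnb2 was at 3.56, 3.51, 11.5 and 14.7 CPM, and Ccnb1 at 7.73, 5.46, 24.9 and 25.3 CPM, with log2 fold changes of 1.89 (SE 0.22) and 1.93 (SE 0.23). Their partner kinase Cdk1 was at 12.3, 12.5, 28.7 and 27.3 CPM (log2 fold change 1.18, SE 0.16). Cdc25c, the phosphatase that activates Cdk1, was at 0.861, 0.962, 3.90 and 3.79 CPM.

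The promoters of 5 of these genes are shown because the letters CCAAT, the core of the NF-Y site, stand in all of them close to the start of transcription. Sequences are from RefSeq on GRCm38.p6, 150 bases up to the base before the annotated start, 5′ to 3′ on the strand of the gene. Capitals mark CCAAT, read on either strand, so that ATTGG is its reverse complement, and TTTGAA and TTTAAA, 2 forms of the CHR element that MuvB complexes bind (TTCAAA is the reverse complement of the first).
Top2a: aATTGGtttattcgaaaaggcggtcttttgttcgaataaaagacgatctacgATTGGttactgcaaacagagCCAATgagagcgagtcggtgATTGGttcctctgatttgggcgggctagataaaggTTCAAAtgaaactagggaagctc
Ccnb1: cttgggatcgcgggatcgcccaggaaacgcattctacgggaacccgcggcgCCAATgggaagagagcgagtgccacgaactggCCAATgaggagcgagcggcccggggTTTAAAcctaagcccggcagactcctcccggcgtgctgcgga
Ccnb2: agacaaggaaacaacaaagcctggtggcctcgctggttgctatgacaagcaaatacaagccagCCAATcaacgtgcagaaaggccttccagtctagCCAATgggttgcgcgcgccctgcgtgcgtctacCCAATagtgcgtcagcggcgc
Bub1: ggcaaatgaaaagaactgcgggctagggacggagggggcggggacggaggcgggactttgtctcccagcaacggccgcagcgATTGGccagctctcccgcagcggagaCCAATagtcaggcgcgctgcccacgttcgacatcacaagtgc
Cdk1: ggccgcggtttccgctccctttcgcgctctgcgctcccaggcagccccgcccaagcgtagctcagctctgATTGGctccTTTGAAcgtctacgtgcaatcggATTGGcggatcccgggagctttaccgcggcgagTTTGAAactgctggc
The windows lie on the minus strand at chr11:99024190-99024339, chr13:100786487-100786636, chr9:70421555-70421704, chr2:127831860-127832009 and chr10:69352913-69353062. CCAAT occurs 4 times in the window of Top2a, 3 times in that of Ccnb2 and 2 times in each of the others. The same window of Thbs2, a gene lower in the metastases, is not printed and holds CCAAT 1 time. TTTGAA occurs once in Top2a and 2 times in Cdk1, and TTTAAA once in Ccnb1.

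Over the 250 bases before the start, CCAAT was found in 32 of the 46 promoters matched to 41 of the 45 spindle genes (69.6%). It was found in 31 of 59 promoters of the replication list (52.5%) and in 42 of 53 promoters of the histone list (79.2%), whose members often share a promoter region with a neighbour. Of all 32851 RefSeq promoters of this length, 33.8% held it. TTTGAA was in 30.4% of the spindle promoters, 11.9% of the replication promoters, 45.3% of the histone promoters and 16.0% of all. TTTAAA was in 10.9% of the spindle promoters, 6.78% of the replication promoters, 34% of the histone promoters and 12.1% of all. Of the 12 protein-coding genes with the smallest p on the higher side, 11 had a promoter in the table, and 10 of their 12 promoters held CCAAT. Of the 12 on the lower side, 10 had 1, and 2 of the 10 held it. No entry was found for Tpx2, Cps1 and Mmp9. These matches describe letters only.

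**Figure D2:**
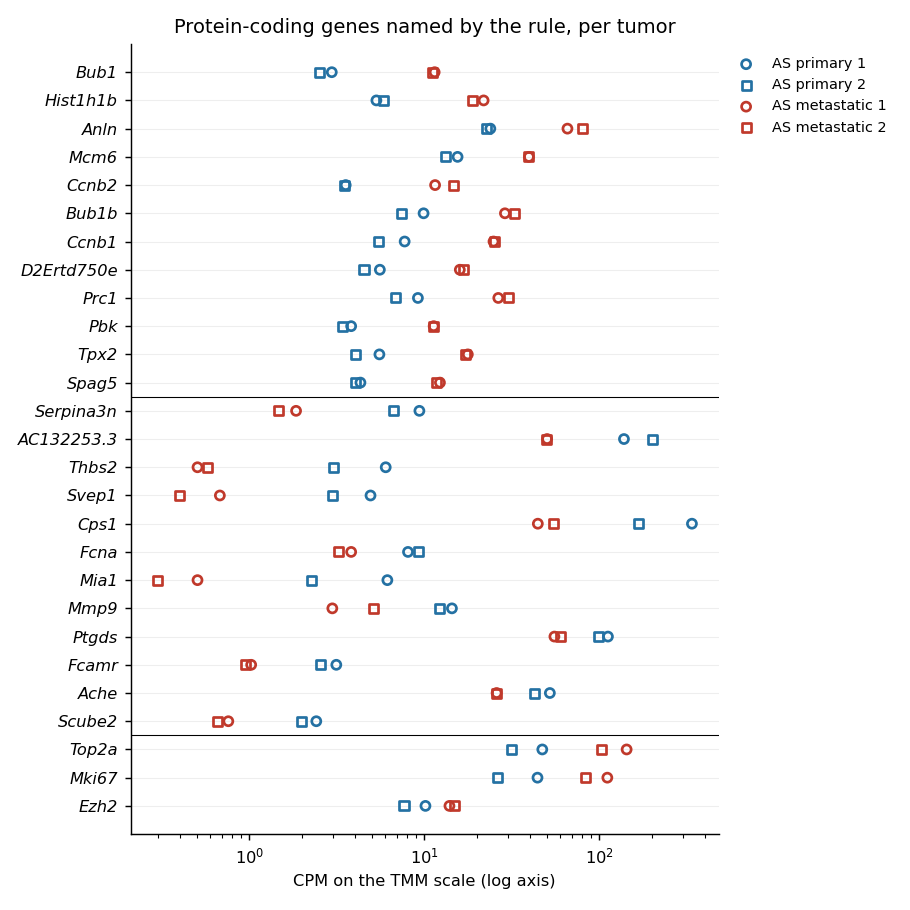
Each row is a gene and each symbol a tumor, with CPM on a log axis, AS primary in blue, AS metastatic in red, circles for tumor 1 and squares for tumor 2. The top block holds the 12 protein-coding genes with the smallest p among those higher in the metastases, the middle block the 12 among those lower, and the bottom block Top2a, Mki67 and Ezh2. Blue and red symbols do not overlap in any row, as in 38.2% of all genes tested, and Top2a reaches 143 CPM in AS metastatic 1.

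Genes of the centromere and kinetochore, which fasten chromosomes to the spindle, were higher as a group too. Of 40 tested, 28 were higher at an unadjusted p under 0.05, 35 had both metastatic values above both primary values, and DESeq2 called 19. The count was 16 of 40 with all 8 tumors in the fit. The median log2 fold change was 1.25. Nuf2, a subunit of the Ndc80 complex, was at 2.05, 1.20, 7.31 and 8.78 CPM, with a log2 fold change of 2.31 (SE 0.32). Cenpa, the histone H3 variant of centromeres, was at 3.56, 2.49, 9.80 and 12.2 CPM. Cenpf was at 14.9, 9.63, 41.8 and 39.3 CPM and Casc5, now called Knl1, at 7.17, 4.90, 22.98 and 19.9 CPM. In each of these 4 genes AS primary 2 was the lowest tumor.

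Genes of DNA replication were higher by less. Of 57 tested, 30 were higher at an unadjusted p under 0.05, none was lower, 46 had both metastatic values above both primary values, and DESeq2 called 16. The median log2 fold change was 0.61, with a range of -0.52 to 1.79. Without AS metastatic 1 the count at an unadjusted p under 0.05 was 16 of 57, and the median 0.59. The count was 12 with all 8 tumors in the fit. Mcm6, a subunit of the replicative helicase, was at 15.5, 13.3, 39.6 and 39.2 CPM (log2 fold change 1.45, SE 0.17). Mcm5, of the same ring, was at 5.51, 5.70, 16.8 and 14.9 CPM. Mcm10, which helps the helicase start, was at 1.90, 1.52, 6.27 and 5.55 CPM. Uhrf1, which reads hemimethylated DNA behind the fork, was at 6.22, 4.42, 16.0 and 18.2 CPM. The primary and metastatic values of these 4 genes do not overlap.

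Cyclins, CDKs and E2F regulators were mixed, with 14 of 44 higher at an unadjusted p under 0.05, none lower, 10 called by DESeq2 and a median of 0.27. Of 36 kinesins, the microtubule motors, 12 were higher and 2 lower, DESeq2 called 9 higher, and the 4 with the smallest p were mitotic motors. Without AS primary 2 there were 6 lower, and without AS primary 1 none. Kif11, which pushes spindle poles apart, was at 7.15, 4.39, 20.7 and 17.9 CPM. Kif20a was at 8.80, 6.69, 21.1 and 22.3 CPM, Kif22 at 2.57, 1.80, 7.01 and 7.12 CPM and Kif23 at 3.56, 2.34, 10.5 and 8.76 CPM. Of 20 condensin and cohesin subunits and regulators, 8 were higher and none lower, led by the condensin subunits Ncapg (6.36, 5.18, 16.3 and 14.2 CPM) and Smc2 (16.4, 14.6, 40.1 and 31.9 CPM). The median of this list was 0.28 and DESeq2 called 5, and without AS metastatic 1 the count was 5 of 20. Of 35 genes of homologous recombination and the Fanconi pathway, 13 were higher and none lower, 7 were called by DESeq2 and the median was 0.43. Without AS metastatic 1 the count was 8 of 35. Fancd2 was at 1.47, 1.20, 4.93 and 4.18 CPM and Brca1 at 6.04, 5.13, 13.6 and 11.1 CPM.

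Of the 6 DNA topoisomerases tested, Top2a was the one with an unadjusted p under 0.05. Top2a encodes topoisomerase IIα, which untangles sister chromatids in dividing cells (chr11:98992943-99024189, minus strand). It was at 47.3, 31.7, 143 and 103 CPM, with a log2 fold change of 1.64 (SE 0.27, adjusted p = 0.205). The lower metastatic value was more than 2 times the higher primary value. DESeq2 gave Top2a an adjusted p of 6.76e-06. Top1, the enzyme that relaxes supercoils throughout the cell cycle, was at 75.1, 67.5, 80.7 and 75.8 CPM, and its log2 fold change was 0.14 (SE 0.15). Mki67, a marker of dividing cells, was at 44.4, 26.2, 111 and 83.5 CPM (log2 fold change 1.46, SE 0.30). Ezh2, the catalytic subunit of Polycomb repressive complex 2, was at 10.2, 7.66, 13.9 and 14.9 CPM, with a log2 fold change of 0.70 (SE 0.21, adjusted p = 0.516). It was the only one of 12 genes of this complex with an unadjusted p under 0.05, and DESeq2 did not call it (adjusted p = 0.209). Eed, another core subunit, was at 14.9, 19.1, 22.9 and 19.9 CPM, and Ezh1, the paralog of Ezh2, at 35.4, 35.6, 31.9 and 27.5 CPM.

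Replication-dependent histone genes, whose mRNAs end in a stem loop in place of a poly(A) tail, were higher almost throughout. Of 57 tested, 45 were higher at an unadjusted p under 0.05, none was lower, 52 had both metastatic values above both primary values, and DESeq2 called 28. With all 8 tumors in the fit, 4 of the 57 had an unadjusted p under 0.05. The median log2 fold change was 1.08 and the summed level was 540.2, 582, 1009 and 969 CPM. Hist1h1b, a linker histone (chr13:21779883-21780625), was at 5.33, 5.81, 21.8 and 18.9 CPM (log2 fold change 1.87, SE 0.19). Hist1h2bk was at 1.62, 1.32, 4.98 and 5.43 CPM and Hist1h2bl at 40.4, 46.4, 92.2 and 101.3 CPM. Hist1h2ao was at 2.09, 2.09, 6.74 and 6.22 CPM. Core histone genes are near-identical copies, so reads kept only at a unique location can be lost or split among them, and the values of single copies are uncertain.

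**Figure D3:**
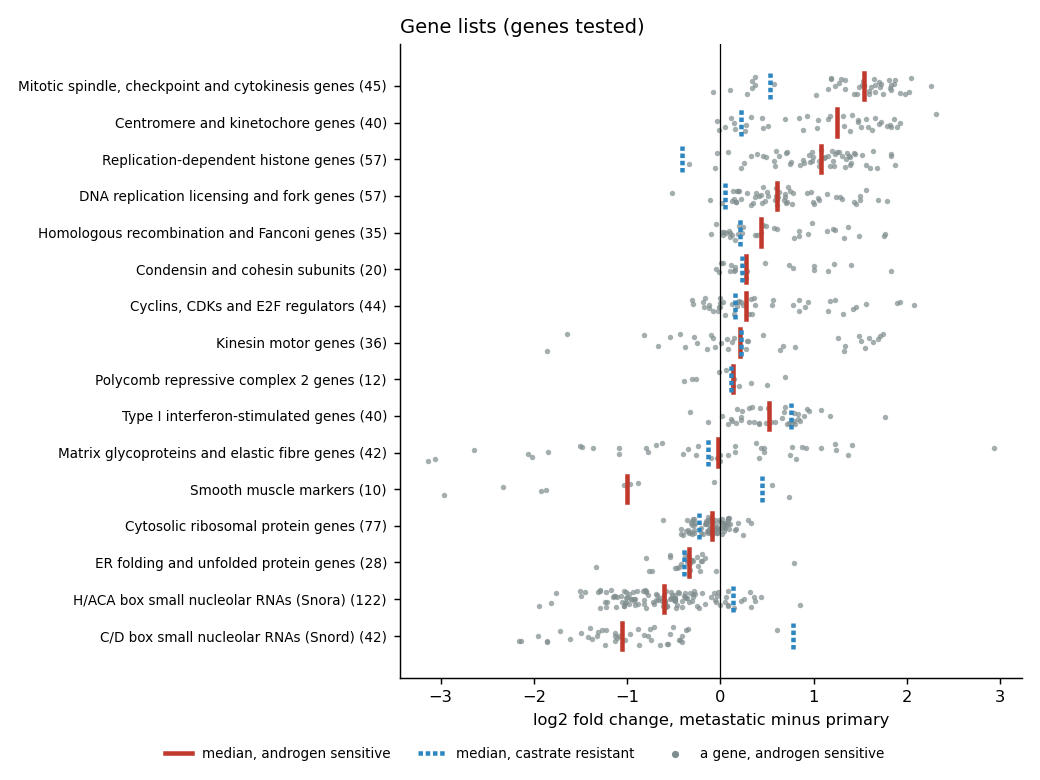
Grey points are genes of 16 lists, with the number of genes tested in brackets, placed by log2 fold change, metastatic minus primary, in AS tumors. Red bars are the medians in AS tumors and dotted blue bars those of the same genes in CR tumors. The red bar is at 1.53 for spindle genes and at -1.06 for C/D box small nucleolar RNAs, where the blue bars are at 0.53 and 0.78.

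Small nucleolar RNAs lay mostly on the lower side. Small nucleolar RNAs guide the chemical modification of ribosomal RNA: C/D box RNAs direct methylation of the ribose, and H/ACA box RNAs direct pseudouridylation. Of 400 genes named Snord, 42 passed the filter, 21 of them were lower at an unadjusted p under 0.05 and none was higher. Both metastatic values were below both primary values for 23 of the 42 (54.8%), and the median log2 fold change was -1.06. Of 122 Snora genes tested, 44 were lower and 1 higher, 69 had both metastatic values below both primary values, and the median was -0.60. The summed level of Snord genes was 1760, 1934, 880 and 1000 CPM. That of Snora genes was 5104, 8658, 5013 and 4813 CPM, so in this sum AS primary 1 was close to the metastases and only AS primary 2 stood above them. DESeq2 called 9 Snord and 16 Snora genes lower. Without AS primary 2 the Snora count was 24 of 125 lower with a median of -0.37, without AS metastatic 1 it was 20 of 127, and without AS primary 1 it was 73 of 127 with a median of -0.88. Without AS metastatic 2 the Snord count was 13 of 51, and without AS metastatic 1 the Snord median was -1.69. With all 8 tumors in the fit, 3 of 60 Snord and 11 of 134 Snora genes were lower.

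The sequences of 3 of these RNAs, from the GENCODE M21 transcripts (GRCm38), are shown because they had the smallest p of the small nucleolar RNAs. Capitals mark TGATGA, from the C box, near the 5′ end of Snord14c, and in Snord22 ATGAAGA, an inexact match to that box. They also mark the last CTGA, the D box, in the C/D box RNAs, and the terminal ACA of the H/ACA box RNA.
Snord22: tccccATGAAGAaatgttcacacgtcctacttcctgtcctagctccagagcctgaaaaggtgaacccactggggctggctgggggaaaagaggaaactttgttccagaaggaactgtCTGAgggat
Snord14c: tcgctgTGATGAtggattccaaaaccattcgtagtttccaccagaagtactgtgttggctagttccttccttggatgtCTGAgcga
SNORA38 copy Gm23442: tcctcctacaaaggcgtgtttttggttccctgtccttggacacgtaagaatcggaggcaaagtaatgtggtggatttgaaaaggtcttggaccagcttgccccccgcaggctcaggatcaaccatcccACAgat
Snord22 (chr19:8725866-8725991, plus strand) was at 420, 388, 79.5 and 128 CPM. Neither metastasis reached the primary values, and the log2 fold change was -1.96 (SE 0.26, adjusted p = 0.182). Snord14c, whose symbol in the files is SNORD14 (ENSMUSG00000096263), lies at chr9:40803583-40803668, plus strand, and was at 6.39, 5.95, 2.02 and 1.38 CPM. Gm23442, whose symbol is SNORA38 (ENSMUSG00000064853), lies at chr17:35162563-35162696, minus strand, and was at 37.9, 64.0, 13.0 and 15.8 CPM. SNORD14 and SNORA38 have several copies, which uniquely mapped reads may not tell apart.

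Other short RNA classes were looked at after the small nucleolar RNAs had been seen, and they differed among themselves. Of 51 genes annotated as ribosomal RNA, all of them copies of 5S RNA by name, 43 were lower at an unadjusted p under 0.05, and their summed level was 734, 799, 270.3 and 467 CPM. The named copy n-R5s33 was at 2.73, 2.83, 0.693 and 0.731 CPM. Of 53 small nuclear RNAs, 26 were lower and none higher. Of 21 miRNA genes, none was lower or higher, of 28 genes annotated as miscellaneous RNA, 2 were higher and none lower, and of 3 ribozyme RNAs none was lower or higher. The share of all counts on small nucleolar, small nuclear, Cajal body and ribosomal RNA genes was 2.78%, 3.47%, 2.35% and 2.62%. RNAs of this length are near the lower limit of what such libraries retain, and the part of library preparation in their levels was not tested.

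Of 1200 processed pseudogenes, 32 were higher and 14 lower at an unadjusted p under 0.05, and of 635 antisense genes 9 were higher and 11 lower. The 4 non-coding genes with the smallest p on the higher side were the processed pseudogenes Gm11223 (10.7, 7.38, 29.8 and 28.1 CPM), Gm13232 (14.6, 12.1, 51.4 and 34.9 CPM) and Gm7856 (0.629, 0.533, 2.10 and 2.11 CPM), and the antisense gene 4930558J22Rik (1.16, 1.17, 3.46 and 3.44 CPM). Reads of a pseudogene and its parent gene may not be told apart.

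Genes of the extracellular matrix moved in both directions. Of 42 matrix glycoprotein and elastic fibre genes, 9 were higher and 10 lower at an unadjusted p under 0.05, and the median was -0.02. DESeq2 called 4 higher and 1 lower. The lower count was 6 without AS primary 1, 4 without AS metastatic 2, 3 with at least 1 CPM in every tumor and 3 with all 8 tumors in the fit, where 5 were higher. Postn, the secreted matricellular protein periostin (chr3:54361109-54391037), was at 13.2, 10.3, 119 and 60.1 CPM, with a log2 fold change of 2.93 (SE 0.36, adjusted p = 0.182). AS metastatic 1 was about 2 times AS metastatic 2, and both were far above the primary tumors. Spp1, osteopontin, was at 573, 752, 1681 and 1842 CPM (log2 fold change 1.41, SE 0.21). Thbs2, the anti-angiogenic thrombospondin 2 (chr17:14665500-14694235), was at 6.02, 3.05, 0.506 and 0.576 CPM, a log2 fold change of -3.06 (SE 0.42, adjusted p = 0.182). Svep1, a large cell adhesion protein, was at 4.93, 2.97, 0.679 and 0.401 CPM (log2 fold change -2.88, SE 0.43).

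Of 35 collagen chains, 5 were higher and 2 lower, and DESeq2 called 3 higher and 1 lower. The higher count was 2 without AS metastatic 2 and 8 without AS primary 2 or AS metastatic 1. The basement membrane chain Col4a1 was at 57.1, 65.4, 90.5 and 162 CPM, and Col15a1 and Col18a1, which border blood vessels and epithelia, were at 3.09, 4.29, 6.73 and 10.5 CPM and at 2.25, 2.74, 4.45 and 6.61 CPM. Of 43 matrix proteases and inhibitors, 2 were higher and 4 lower, and DESeq2 called 2 lower. Their log2 fold changes ranged from -1.73 to 1.38. The median was -0.05, and it lay between -0.15 and 0.14 with 1 tumor left out. With all 8 tumors in the fit, 3 of 46 were lower and none higher. Mmp9, a gelatinase also made by neutrophils, was at 14.4, 12.2, 2.98 and 5.11 CPM (log2 fold change -1.71, SE 0.30). Mmp2 was at 6.27, 5.15, 2.69 and 1.40 CPM. Of 24 factors and cadherins of epithelial-mesenchymal transition, 3 were higher and 2 lower, and DESeq2 called none. Their log2 fold changes ranged from -2.02 to 1.09. The median was 0.17, and it lay between -0.02 and 0.23 with 1 tumor left out. Vim, at 47.6, 63.8, 121 and 85.6 CPM, and Twist2, at 1.94, 2.37, 4.04 and 5.11 CPM, were on the higher side.

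Of the other protein-coding genes named on the lower side, Cps1 is in the list of liver markers and the rest are in no list. Serpina3n, an acute-phase protease inhibitor, was at 9.38, 6.69, 1.85 and 1.47 CPM, with a log2 fold change of -2.27 (SE 0.28, adjusted p = 0.182). AC132253.3, listed as Scgb2a2 in GENCODE M21 and a member of the secretoglobin family, was at 138, 203, 50.4 and 50.2 CPM. Cps1, the mitochondrial enzyme that starts the urea cycle, was at 339, 168, 44.6 and 54.9 CPM (log2 fold change -2.35, SE 0.36). In all 3 genes the metastases were close to each other and the primary tumors differed more. Mia1 was at 6.16, 2.28, 0.506 and 0.298 CPM, Ptgds, a prostaglandin D2 synthase, at 112, 98.9, 55.5 and 60.4 CPM, and Ache, acetylcholinesterase, at 52.2, 42.8, 25.9 and 25.7 CPM. Fcna, a ficolin of macrophages, was at 8.08, 9.26, 3.82 and 3.22 CPM. Fcamr, an Fc receptor for IgA and IgM, was at 3.14, 2.56, 1.03 and 0.947 CPM, and Scube2, a secreted protein that releases Hedgehog ligands, at 2.42, 1.997, 0.759 and 0.659 CPM.

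Markers of other cell types were counted beside these genes. Of 10 smooth muscle markers, 4 were lower at an unadjusted p under 0.05 and none higher, DESeq2 called 3, and their summed level was 44.1, 23.1, 16.2 and 19.99 CPM. Myh11, smooth muscle myosin, was at 10.6, 2.72, 1.88 and 1.63 CPM, so AS primary 1 set most of its difference. Without that tumor the median of the list was -0.40 in place of -1.001, and the count was 2 lower. It was 2 without AS metastatic 1 and 7 without AS primary 2. Tagln, at 6.65, 7.06, 3.88 and 3.12 CPM, and Acta2, at 7.20, 6.54, 3.74 and 3.71 CPM, were close between the primary tumors. Of 15 fibroblast and pericyte markers tested, 4 were lower, but the summed level of the list was 95.4, 128, 119 and 117 CPM. Endothelial markers summed to 139, 174, 152 and 232 CPM and macrophage markers to 665, 931, 875 and 692 CPM, with 1 gene lower in each list and none higher. Of 20 endothelial markers, 16 had a positive log2 fold change. Their median was 0.35, and it lay between -0.04 and 0.69 with 1 tumor left out. Of 17 macrophage markers, 10 had a positive log2 fold change, with a median of 0.06. Neutrophil markers summed to 26.2, 33.6, 37.0 and 23.3 CPM. Of 10 tested, 9 had a positive log2 fold change and 1, Mmp9, a negative one. Their median was 0.80, and it lay between -0.17 and 2.48 with 1 tumor left out. T and NK cell markers summed to 5.41 to 7.02 CPM. Red blood cell markers summed to 114, 554, 162 and 621 CPM and B and plasma cell markers to 18.3, 79.3, 40.0 and 6.67 CPM. Both sums differed more between the tumors of 1 group than between the groups. The part of other cell types in the gene differences was not tested.

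Apart from the liver list, markers of lung, kidney and adrenal, intestine and pancreas were low. Bone, brain and lymph node had no list. Lung markers summed to 24.5 to 42.5 CPM, kidney and adrenal markers to 3.57 to 7.48 CPM, intestine markers to 2.90 to 5.64 CPM and pancreas markers to 2.58 to 14.4 CPM. The liver list summed to 3982 to 10977 CPM, of which Fgb made up 96.7% on average, and 9 of its 15 genes were under 1 CPM in every tumor. Fgb was at 10438, 9818, 8243 and 3896 CPM. Of 10 liver markers tested, 2 were lower at an unadjusted p under 0.05 and none higher, and DESeq2 called 2 lower. Both metastatic values were below both primary values for 6 (60%, against 17.7% of all genes tested) and above them for 1. The median log2 fold change was -0.89, and it lay between -1.25 and -0.30 with 1 tumor left out. Markers of normal prostate and seminal vesicle summed to 16.3, 5.80, 5.02 and 5.31 CPM. Among 8 skeletal muscle markers, Tnnt3 was at 1.37, 1.80, 13.7 and 6.79 CPM (log2 fold change 2.68, SE 0.40, adjusted p = 0.182), and no other was higher at an unadjusted p under 0.05.

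Androgen-regulated prostate genes showed no common direction, with 5 of 22 higher, 1 lower and a median of -0.03. Hoxb13, a homeobox factor of the prostate, was at 10.8, 13.8, 25.9 and 22.4 CPM (log2 fold change 0.97, SE 0.20). Steap1 was at 8.94, 14.8, 20.7 and 25.1 CPM and Sord, sorbitol dehydrogenase, at 1.41, 1.89, 3.46 and 5.99 CPM. Myc, counted at its own locus, was at 4.42, 4.19, 4.21 and 4.25 CPM, and none of 13 genes of the Myc, Max and Mxd network had an unadjusted p under 0.05. Whether reads of the Myc transgene of this line are included was not tested. Gapdh was at 54.6, 33.4, 29.7 and 48.4 CPM and overlapped between the groups.

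Type I interferon-stimulated genes were higher by a smaller margin. Of 40 tested, 8 were higher at an unadjusted p under 0.05, none was lower, 23 had both metastatic values above both primary values and the median was 0.53. DESeq2 called 1. Oasl2, an oligoadenylate synthetase-like protein, was at 11.5, 20.0, 26.0 and 30.9 CPM, and Xaf1 at 4.09, 6.01, 9.65 and 7.77 CPM. Without AS primary 1 or without AS metastatic 1, 2 of the 40 were higher at an unadjusted p under 0.05, without AS metastatic 2 there were 5 and without AS primary 2 there were 23. With all 8 tumors in the fit none of the 40 had an unadjusted p under 0.05. Of 34 cholesterol and fatty acid synthesis genes, 7 were higher and none lower with a median of 0.09, and DESeq2 called 2. Without AS metastatic 2 there were 2 higher, without AS primary 2 there were 3 higher and 6 lower, and with all 8 tumors in the fit 1 was higher. Idi1, isopentenyl diphosphate isomerase, was at 8.95, 5.06, 15.8 and 21.8 CPM, and Cyp51 at 18.8, 14.8, 24.9 and 26.8 CPM.

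Genes of folding in the endoplasmic reticulum were lower by a small amount. Of 28 tested, 6 were lower at an unadjusted p under 0.05, none was higher, 16 had both metastatic values below both primary values and the median was -0.34. DESeq2 called none. Edem1, which sends misfolded proteins to degradation, was at 259, 202, 149 and 128 CPM. Herpud1, of the same pathway, was at 159, 161, 122 and 97.9 CPM, and the stress sensor Ern1 at 144, 84.1, 67.8 and 62.7 CPM. Without AS metastatic 2 none of the 28 had an unadjusted p under 0.05, and without AS metastatic 1 there were 13. The cystine transporter Slc7a11 was at 294, 159, 111 and 79.2 CPM, in a list of amino acid stress genes of which 2 of 33 were higher and 2 lower. Of 75 nuclear-encoded respiratory chain genes 1 was lower, and of 77 cytosolic ribosomal protein genes 3 were lower, with medians of -0.14 and -0.10. Of 39 ribosome biogenesis genes none had an unadjusted p under 0.05. Of 40 hypoxia and glycolysis genes, 3 were higher and 2 lower, among them Hk2, hexokinase 2, at 263, 210, 145 and 152 CPM. Their median was 0.20, but without AS metastatic 1 it was 0.52 with 14 of 40 higher, and without AS metastatic 2 it was -0.19 with 2 higher. None of 25 antigen presentation genes had an unadjusted p under 0.05, nor did any of 8 neuroendocrine genes tested of 21 found. Of 31 Wnt ligands, receptors and antagonists 2 were higher and 3 lower, with the secreted antagonists Wif1 at 1.46, 1.58, 5.91 and 4.02 CPM and Sfrp1 at 3.56, 0.902, 0.453 and 0.206 CPM. Of 45 chemokines and receptors 2 were lower and none higher, with a median of 0.14, but without AS primary 2 there were 10 higher of 46 and without AS primary 1 there were 6 lower of 47. Of 13 keratins 1 was lower and none higher, although 10 had a positive log2 fold change and the median was 0.56. Without AS primary 2, 8 of the 13 were higher with a median of 1.79, and without AS primary 1 the median was -0.12. Of 36 glutathione and phase II genes 2 were higher and 2 lower, and of 12 prostate epithelial markers 1, Hoxb13, was higher. None of 15 genes of the mitochondrial genome had an unadjusted p under 0.05, nor did either of the 2 adipocyte markers tested of 10 found. None of the genes in this paragraph passed the adjusted threshold in the quasi-likelihood test.

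Whether these differences depended on the phenotype was tested by the interaction over all 8 tumors, which compares the metastatic effect in AS tumors with that in CR tumors. AS and CR libraries carry separate runs of library numbers, so a dependence on phenotype cannot be told apart from one on library series. The fit assumes 1 spread for both. No gene of 18889 passed an adjusted p of 0.05 (smallest 0.964). At an unadjusted p under 0.05 the effect was higher in AS tumors for 291 genes (1.54%) and lower for 226 (1.2%). The comparison of CR metastatic with CR primary tumors gave 447 genes higher (2.37%) and 1015 lower (5.37%) at an unadjusted p under 0.05. Spindle genes had a median log2 fold change of 0.53 in CR tumors, kinetochore genes 0.22 and replication genes 0.05, and of these lists 0, 0 and 3 genes had an interaction p under 0.05. Histone genes had a median of -0.41 in CR tumors and Snord genes of 0.78, with interaction p under 0.05 for 3 of 57 histone genes and 4 of 42 Snord genes. Top2a had a log2 fold change of 0.39 in CR tumors, and its interaction had an adjusted p of 0.964. The medians of the 2 phenotypes are values side by side, and a difference between the phenotypes was not shown by this test.

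**Figure D4:**
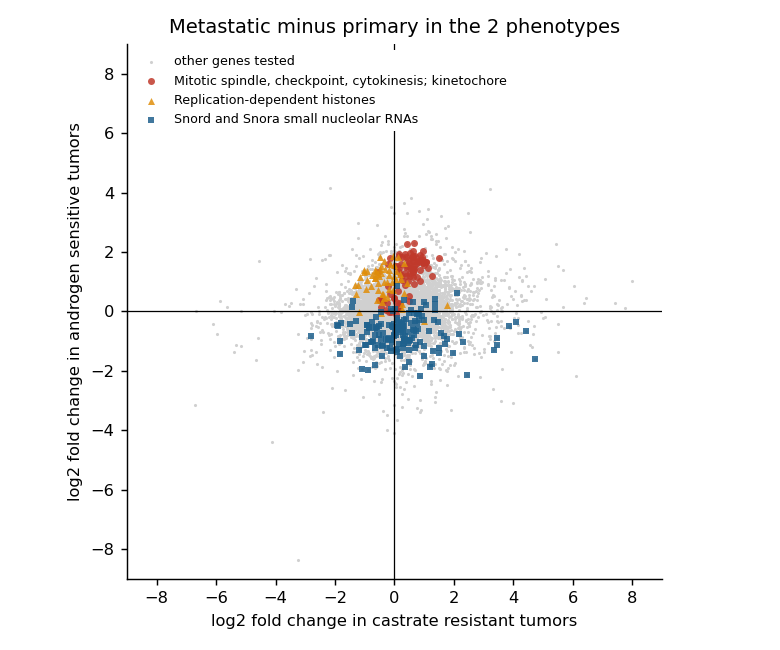
Each point is a gene, with its log2 fold change, metastatic minus primary, in CR tumors on the horizontal axis and in AS tumors on the vertical axis. Red points are spindle and kinetochore genes, orange triangles histone genes and blue squares small nucleolar RNAs. Spindle genes lie mostly above 0 on the AS axis (44 of 45), with medians of 1.53 in AS and 0.53 in CR tumors, and histone genes have a CR median of -0.41.

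Among the named genes, Thbs2, Spp1 and Postn had an interaction p under 0.05 before adjustment. Thbs2 had a log2 fold change of -3.06 in AS tumors and 1.36 in CR tumors, and Spp1 had 1.41 and -0.13. Of the small nucleolar RNAs shown above, Snord22 had -1.96 and -0.90, and SNORA38 (ENSMUSG00000064853) -1.82 and -0.65. Their lists had CR medians of 0.78 for Snord and 0.14 for Snora genes, so these 2 RNAs do not stand for their lists. Postn had 2.93 in AS and 0.95 in CR tumors. For these 3 matrix proteins the interaction had an adjusted p of 0.964.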

How the data were processed

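RNA was extracted with TRIzol from 8 Myc-CaP tumors. Per the study's methods, ribosomal RNA was depleted from total RNA, stranded libraries were made and paired-end reads were sequenced. The authors aligned the reads to mm10 with Bowtie, keeping reads with 1 location and up to 2 mismatches, whereas the submitters' processing notes name CASAVA 1.8.2, TopHat2 2.0 and GRCm38. The counting tool and annotation are not given in the sources used here. Genes in several copies lose reads at this step.

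The deposited values are raw read counts per gene, without normalization, for 38115 genes, of which 36343 were found in GENCODE M21, used here for positions and gene types. Groups were taken from the tumor type and phenotype labels. Counts of the 4 androgen sensitive tumors were filtered by filterByExpr, scaled by TMM and tested by edgeR's quasi-likelihood test (edgeR 4.0.16, R 4.3.3), with Benjamini-Hochberg adjustment and a threshold of 0.05. An SE is the log2 fold change divided by the square root of F. A list's count uses unadjusted p-values and has no test. The interaction used all 8 tumors.

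DESeq2 1.42.0, limma 3.58.1 voom, edgeR's exact test, RLE factors, other filters, both possible pairings and each tumor left out were alternatives. The fits were tested on simulated counts. Total counts were 61237285 to 91886163 per AS tumor, and with 2 tumors a side the spread rests on 2 residual degrees of freedom.

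The comparison, the gene lists and the tests were chosen with earlier results of these data known. Named were the 12 protein-coding and 4 other genes in each direction that passed the threshold with the largest fold change, and, where fewer passed, those with the smallest p, at a mean of at least 1 CPM. Top2a, Ezh2, Mki67, Myc and Gapdh were named whatever their values (a further gene of this rule is not reported here), and so were up to 4 genes of each list with the smallest p. Krt8, Cldn3, Cdh1 and Epcam, outside this rule, were chosen after their values were seen. Promoters were matched by symbol or synonym. Figures were drawn with matplotlib 3.10.9.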

Additional observations from a re-analysis of the deposited data

How the results depend on the processing

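The number of genes past the adjusted threshold depended on the test and the filter. It was 0 in both directions by the quasi-likelihood test, by limma voom, with RLE factors, with totals over nuclear protein-coding genes without Lars2, with at least 1 CPM in every tumor, with all 8 tumors in the fit and at thresholds of 0.10 and 0.01. It was 225 higher and 105 lower by DESeq2, 200 and 83 by edgeR's exact test, and 451 and 419 with every gene of at least 1 count. Leaving out 1 tumor gave 0 to 328 higher and 0 to 475 lower: 48 and 22 without AS primary 1, 328 and 475 without AS primary 2, and 0 and 0 without either metastasis. In a fit without one tumor, the lone tumor of its group is assumed to vary like the other group.

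At an unadjusted p under 0.05, the counts were 748 higher and 524 lower. They were 1278 and 1205 with every gene of at least 1 count, 293 and 169 with all 8 tumors in the fit, and 440 to 1574 and 272 to 1632 when 1 tumor was left out. The difference between phenotypes gave 0 genes at the adjusted threshold, 0 and 2 by DESeq2 (AS effect higher and lower), 77 and 140 with every gene of at least 1 count, and 0 to 25 and 0 to 57 with 1 tumor left out, all of these without CR primary 2. Its unadjusted counts of 291 and 226 became 833 and 762 with every gene of at least 1 count and ranged over 95 to 1782 and 110 to 1207 with 1 tumor left out. The cause of these differences was not tested.

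The median of the spindle list lay between 1.34 and 1.68 with 1 tumor left out, of the kinetochore list between 1.06 and 1.30, of the replication list between 0.54 and 0.71 and of the histone list between 1.04 and 1.12. It lay between -1.69 and -0.73 for Snord genes and between -0.88 and -0.37 for Snora genes. With at least 1 CPM in every tumor, fewer genes were tested and the medians of the kinetochore and histone lists were 1.03 and 0.98. With all 8 tumors in the fit, 4 of 57 histone genes and 3 of 60 Snord genes had an unadjusted p under 0.05, in place of 45 of 57 and 21 of 42.

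Of 92 genes named, the log2 fold change kept its sign under the alternatives run except for 3. Most of the 92 were named for a small p in these same tumors, so a kept sign was largely fixed by that choice. With 1 tumor left out, it ranged from -0.57 to 0.21 for Gapdh, from -1.16 to 1.22 for Cdh1 and from -0.49 to 1.69 for Epcam, and for Cdh1 it was 0.046 by limma voom.

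No paired analysis was possible because the labels do not say which primary tumor each metastasis matches. Each of the 2 possible pairings, fitted as a block, gave 0 genes at the adjusted threshold. Cdh1, Epcam and Krt18 rest on 4 to 41 counts in each of these tumors.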
